A study of Mus musculus with 2 samples.

Results

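The data describe 8 genes in mouse lymph node dendritic cells (DCs), of which 5 encode chemokine receptors (*Ccr7*, *Cxcr4*, *Ccr1*, *Ccr2* and *Cx3cr1*) and 3 encode proteins of the actin machinery or its regulation (*Fscn1*, *Marcksl1* and *Dock8*). They were chosen by name as receptors and actin genes of cell migration, with earlier results of these data known, and are 8 of the 18049 genes listed in the expression data. The cells were profiled by CITEseq, in which mRNA and antibodies tagged with DNA barcodes are counted in the same single cells. The naive library came from unimmunized B6 mice, and the papain library from B6 mice killed 1 day after ovalbumin (OVA) and the protease allergen papain were given together in the rear footpads. In both, live cells were sorted as MHCIIhi CD11c+ B220-, a gate that leaves out cells with little MHC class II. There was 1 library for each condition. Mice of all strains were of both sexes and between 6 and 12 weeks old, and the number of mice behind each library is not given in the sources used here. According to the methods, the papain cells came from popliteal nodes and the naive cells from pooled skin-draining nodes. The labels differ from this, since their protocol text gives popliteal nodes for both libraries while their tissue entry is skin-draining lymph node. Immunization, lymph node site and library therefore cannot be told apart in any comparison of papain with naive cells.

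CCR7 is the receptor for CCL19 and CCL21, the chemokines that lead DCs from the skin through the lymphatics into the T cell zone of the node. CXCR4 binds CXCL12 and takes part in the traffic of many leukocytes, whereas CCR1, CCR2 and CX3CR1 are receptors for inflammatory chemokines and fractalkine and are typical of monocytes, macrophages and DCs that have not matured. Fascin (*Fscn1*) bundles actin filaments into the dendrites of mature DCs, MARCKSL1 links actin to the plasma membrane, and DOCK8 is an exchange factor for CDC42 that leukocytes need to keep their shape while crawling through dense tissue.

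On mouse build mm10, RefSeq places *Ccr7* on chromosome 11 (99144199 to 99155077), *Cxcr4* on chromosome 1 (128588199 to 128592299), *Fscn1* on chromosome 5 (142960355 to 142973189), *Marcksl1* on chromosome 4 (129513581 to 129515981) and *Dock8* on chromosome 19 (24999321 to 25202432). The other receptor genes are all on chromosome 9, with *Ccr1* (123962126 to 123968692) and *Ccr2* (124101918 to 124109140) close together and *Cx3cr1* (120048683 to 120068296) further away. All 8 are protein-coding, and the 3' reads counted here do not show which part of a transcript was made.

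The authors' antibody classes divided 3042 naive and 7306 papain cells into Langerhans cells (LCs), cDC1s and cDC2s, and the cDC2s by their surface CD301b into low (CD301b-lo), intermediate (CD301b-int) and high (CD301b-hi). Their median depth lay between 10768 unique molecular identifiers (UMIs, counted mRNA molecules) per cell in naive LCs and 18290 in papain LCs. Levels are UMIs summed over the cells of a class and scaled to a total of 1000000 (CPM), with exact Poisson 95% intervals. These intervals cover counting error only, and no value has a replicate, so no test between conditions was made. Marker genes mostly followed the labels. *Epcam*, which encodes the CD326 antigen, was at 102 and 156 CPM in naive and papain LCs and at most 29.2 CPM in every other class, *Xcr1* was at 16.9 and 9.44 CPM in cDC1s and at most 6.94 CPM elsewhere, and *Sirpa*, which encodes CD172a, was highest in the 3 cDC2 classes of each library. *Mgl2*, the gene of CD301b, was at 56.1 CPM in naive CD301b-hi cDC2s but at 1.21 CPM in those of the papain library, so that CD301b mRNA did not mark its surface classes there. T cell markers (*Cd3e*, *Cd3d*, *Trac* and *Trbc2*) summed to between 9.55 and 43.7 CPM in naive LCs and cDC2 classes, 145.8 CPM in naive cDC1s and between 8.36 and 20.5 CPM in the papain classes. The libraries shared 2 cell barcodes.

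*Ccr7* was detected in nearly every cell of every class, from 95.1% of naive CD301b-lo cDC2s to 99.8% of LCs in both libraries. Its level in naive cells was 4444 CPM in LCs (4388 to 4501), 4053 in CD301b-hi (4016 to 4089.9), 3582 in CD301b-int (3546 to 3619), 3266 in CD301b-lo cDC2s (3229 to 3303) and 1995 in cDC1s (1966 to 2023). In papain cells it was 3309 CPM in LCs (3283 to 3335), 3276 in CD301b-lo (3249.8 to 3303), 3269.6 in CD301b-hi (3254 to 3285), 3096 in CD301b-int cDC2s (3076 to 3116) and 2342 in cDC1s (2288 to 2397). The naive classes thus stood apart from each other beyond counting error, whereas in papain cells the intervals of LCs, CD301b-lo and CD301b-hi cDC2s overlapped and cDC1s alone stood far below. The log2 ratio of papain to naive was -0.43 in LCs (interval -0.45 to -0.40), -0.31 in CD301b-hi (-0.32 to -0.29), -0.21 in CD301b-int (-0.23 to -0.19), 0.00 in CD301b-lo cDC2s (-0.02 to 0.02) and 0.23 in cDC1s (0.19 to 0.27). These and all later log2 ratios are of CPM with 1 added, and their intervals are exact ones for the ratio of the UMI sums without it. *Ccr7* was thus lower with papain in 3 of the 5 classes and higher in cDC1s, and no ratio reached 2-fold.

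Single cells differed in *Ccr7* by more than the classes did. In naive CD301b-lo cDC2s the 10th percentile of cells was at 202 CPM, the median at 3337 and the 90th percentile at 7092. In naive CD301b-hi cDC2s these values were 1276, 4118 and 7317 CPM, so the upper ends of both classes were close and the low end differed. In papain cells the 10th percentile was 543 CPM in CD301b-lo and 1219.6 CPM in CD301b-hi cDC2s, with medians of 3384 and 3246 CPM. Naive cDC1s had the lowest median of any class, at 1410.2 CPM.

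**Figure D1:**
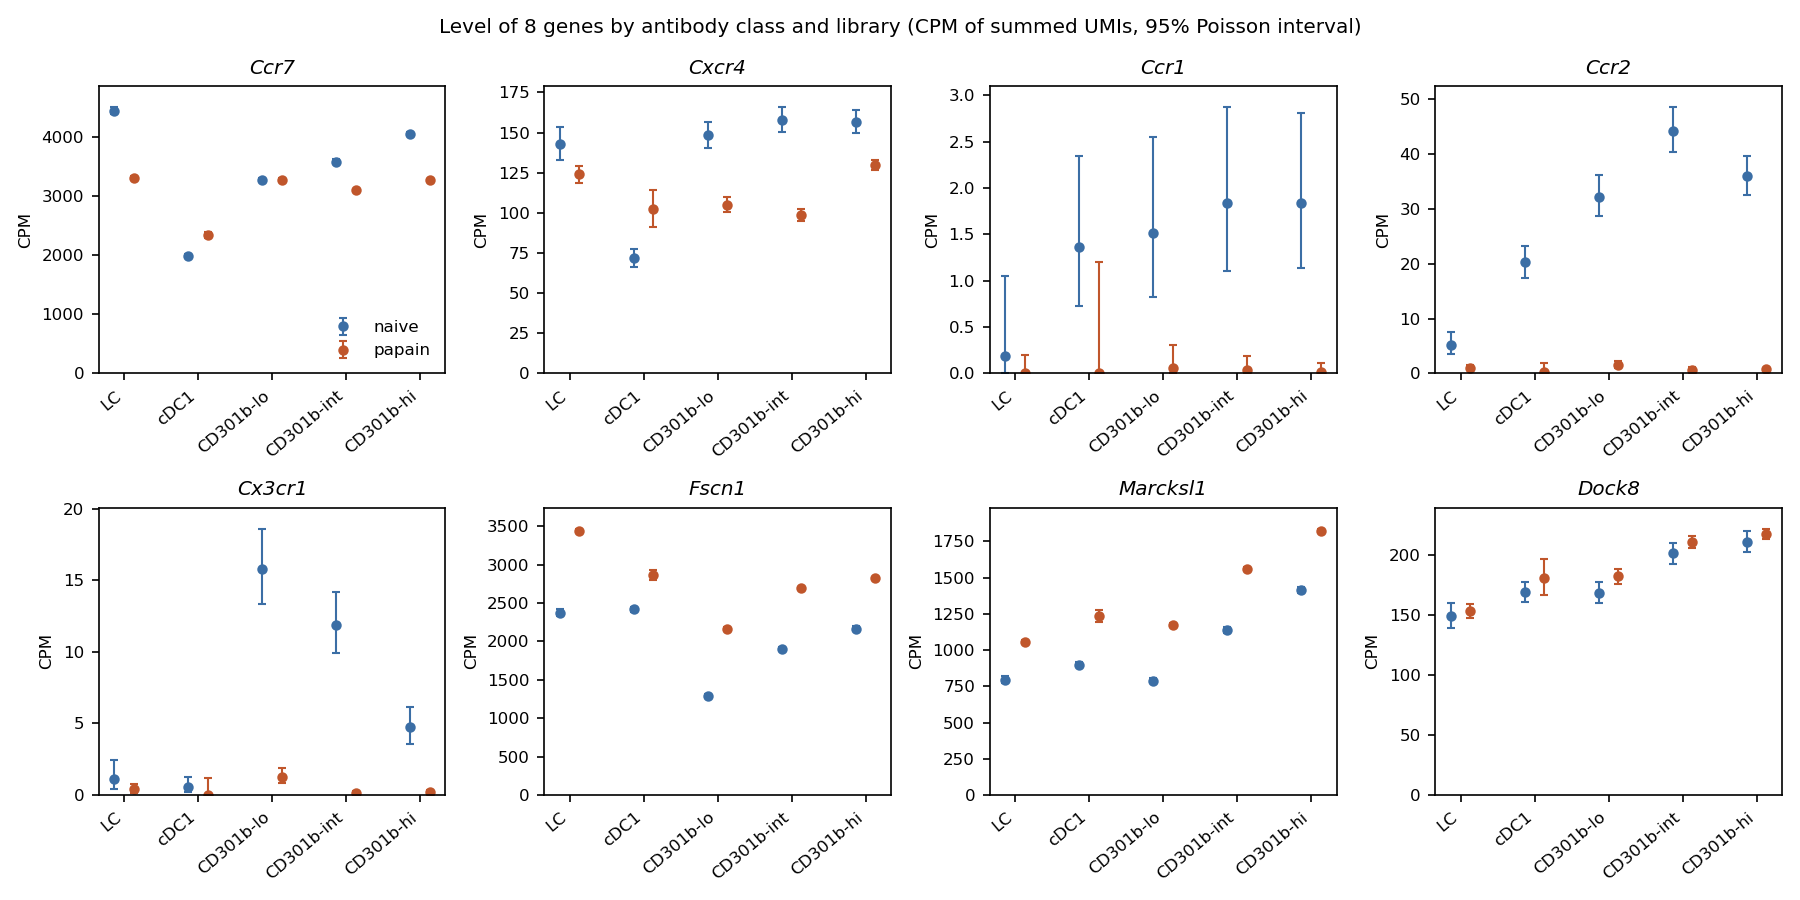
Level of each of the 8 genes in CPM (vertical axes, each starting at 0) in the 5 antibody classes (horizontal axes) of the naive (blue) and papain (orange) library. Points are UMI sums scaled to CPM and bars are exact Poisson 95% intervals. *Ccr2* lies between 5.27 and 44.2 CPM in the naive classes and at no more than 1.55 CPM in the papain classes, and *Fscn1* and *Marcksl1* are higher in the papain library in all 5 classes.

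*Cxcr4* was detected in fewer cells than *Ccr7*, with a UMI in 63.7% of naive and 57.2% of papain cDC2s. In naive cells its level was 158 CPM in CD301b-int (150.3 to 166), 157 in CD301b-hi (149.7 to 164), 148 in CD301b-lo cDC2s (141 to 156), 143 in LCs (133 to 154) and 71.6 in cDC1s (66.3 to 77.2). In papain cells it was 129.6 CPM in CD301b-hi cDC2s (126 to 133), 124 in LCs (119 to 129), 105 in CD301b-lo cDC2s (100.5 to 110.0), 103 in cDC1s (91.5 to 114) and 98.7 in CD301b-int cDC2s (95.2 to 102). The 3 naive cDC2 classes overlapped in their intervals, and so did CD301b-lo cDC2s and cDC1s in the papain library. The ratio of papain to naive was below 0 in CD301b-int (-0.67), CD301b-lo (-0.49), CD301b-hi cDC2s (-0.27) and LCs (-0.20) and above 0 in cDC1s (0.51, interval 0.32 to 0.71). As for *Ccr7*, cDC1s were the class with the lowest naive level and the class that was higher in the papain library. T cell mRNA differed with the library in cDC1s, as 78 of the 578 naive and 11 of the 235 papain cDC1s held a *Cd3e* or *Trac* UMI. Without these cells the ratio in cDC1s was 0.66.

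*Ccr2* was the inflammatory receptor with the most UMIs. In the naive library it was at 44.2 CPM in CD301b-int (40.3 to 48.5), 35.9 in CD301b-hi (32.5 to 39.6), 32.2 in CD301b-lo cDC2s (28.6 to 36.1), 20.2 in cDC1s (17.5 to 23.3) and 5.27 in LCs (3.50 to 7.61). In the papain library it was at 1.55 CPM in CD301b-lo (1.03 to 2.24), 1.04 in LCs (0.623 to 1.62), 0.771 in CD301b-hi (0.548 to 1.05), 0.714 in CD301b-int cDC2s (0.442 to 1.09) and 0.325 in cDC1s (0.00824 to 1.81). Each papain interval thus ended below the naive interval of the same class. The naive level was 61.9-fold that of papain cells in CD301b-int, 46.6-fold in CD301b-hi and 20.8-fold in CD301b-lo cDC2s. The sum of monocyte and macrophage markers (*Ly6c2*, *Adgre1*, *Csf1r* and *C1qa*, 4 of 5 listed) was also lower with papain in these classes. Naive and papain sums were 62.9 and 24.3 CPM in CD301b-lo, 57.5 and 13.5 CPM in CD301b-int and 32.9 and 14.9 CPM in CD301b-hi cDC2s. *Adgre1* and *Csf1r* were lower in each of these classes, but not every marker was. *Ly6c2* was higher with papain in CD301b-lo (5.20 and 8.03 CPM) and CD301b-int cDC2s (0.0968 and 1.12 CPM). *C1qa* was higher in CD301b-hi cDC2s (0.525 and 1.09 CPM). The part of these markers in the *Ccr2* difference was not tested. In cDC1s the papain level rested on 1 UMI, and the log2 ratio was -4.00 with an interval from -11.27 to -3.46. Without the cells that held a *Cd3e* or *Trac* UMI, it was -3.08.

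Few cells carried this *Ccr2*. A UMI was found in 159 of 2024 naive cDC2s (7.86%, exact Clopper-Pearson interval 6.72 to 9.11%) and in 46 of 6190 papain cDC2s (0.743%, 0.545 to 0.990%). The shares were 6.48 and 0.453% among cells of at least 8392 UMIs thinned to that number, with shallower cells left out. *Ms4a1*, a B cell gene that cDC2s should lack, was found in 1.78% of naive cDC2s and 0.501% of papain cDC2s, at median depths of 14196 and 14784 UMIs, and the B cell gene *Cd79b* in 5.34 and 3.07%. In CD301b-lo cDC2s of the naive library *Cd79b* reached 11.1%, above the 9.12% of *Ccr2*. At 12.8 CPM in this class, *Cd79b* stood above the B cell genes *Cd79a* (2.93 CPM) and *Ms4a1* (3.47 CPM) and below *Ighm* (43.3 CPM). How far *Cd79b* measures background is therefore not known. The papain share of *Ccr2* was between those of *Ms4a1* and *Cd79b*, and these shares alone do not tell it apart from background. At least 2 *Ccr2* UMIs were found in 6.08% of naive and 0.145% of papain cDC2s, with up to 57 and 14 UMIs in 1 cell. In LCs the counts were small in both libraries: 16 of the 28 naive UMIs and 17 of the 19 papain UMIs lay in 1 cell each.

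*Cx3cr1*, the fractalkine receptor, was ordered along the CD301b classes of the naive library, at 15.8 CPM in CD301b-lo (13.4 to 18.6), 11.9 in CD301b-int (9.89 to 14.2) and 4.73 in CD301b-hi cDC2s (3.55 to 6.17). Naive LCs and cDC1s were at 1.13 (0.414 to 2.46) and 0.527 CPM (0.171 to 1.23). In the papain library CD301b-lo cDC2s were at 1.27 CPM (0.808 to 1.91), LCs at 0.381 (0.153 to 0.786), CD301b-hi at 0.198 (0.0948 to 0.364) and CD301b-int cDC2s at 0.102 (0.0210 to 0.298), and cDC1s had no UMI, which allows up to 0.976 CPM (3 UMIs). The gene was 12.4-fold higher in naive than in papain CD301b-lo cDC2s, and in CD301b-int cDC2s the log2 ratio was -3.55 with an interval from -9.16 to -5.28 for a papain level of 3 UMIs. A *Cx3cr1* UMI was seen in 5.58% of naive cDC2s (4.62 to 6.67%) and in 0.291% of papain cDC2s (0.172 to 0.459%). The papain share was below that of both B cell genes, and as a share it is not told apart from background. In papain CD301b-lo cDC2s 23 *Cx3cr1* UMIs lay in only 7 cells, whereas in papain CD301b-hi cDC2s 10 UMIs lay in 8 cells. The naive share was close to that of *Cd79b*, although the naive UMIs lay in a minority of cells that is described below.

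*Ccr1* was rare everywhere. Its 68 naive UMIs lay in 23 cells, at 1.84 CPM in CD301b-int (1.11 to 2.87), 1.84 in CD301b-hi (1.14 to 2.81), 1.52 in CD301b-lo cDC2s (0.829 to 2.55), 1.37 in cDC1s (0.729 to 2.34) and 0.188 in LCs (0.00476 to 1.05). The papain library held 3 *Ccr1* UMIs, 1 in each cDC2 class, and none in LCs or cDC1s, which allows up to 0.163 and 0.976 CPM (3 UMIs). In naive cDC1s 11 of the 13 UMIs came from a single cell. The share of naive cDC2s with a *Ccr1* UMI (0.939%) was below that of *Ms4a1*, but its UMIs all lay in 1 mRNA cluster.

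*Fscn1* was higher in the papain library in all 5 classes. In naive cells it was at 2418 CPM in cDC1s (2387 to 2449), 2373 in LCs (2332 to 2415), 2167 in CD301b-hi (2139.7 to 2194), 1899.6 in CD301b-int (1873 to 1926) and 1290.0 in CD301b-lo cDC2s (1267 to 1313). In papain cells it was at 3439 CPM in LCs (3412 to 3466), 2865 in cDC1s (2805 to 2925), 2828 in CD301b-hi (2813 to 2843), 2695 in CD301b-int (2677 to 2714) and 2163 in CD301b-lo cDC2s (2141 to 2184). Within the cDC2s of each library, the order from CD301b-lo to CD301b-hi was thus the same, and naive LCs and cDC1s overlapped. The log2 ratio of papain to naive was 0.74 in CD301b-lo (0.72 to 0.78), 0.53 in LCs (0.51 to 0.56), 0.50 in CD301b-int (0.48 to 0.53), 0.38 in CD301b-hi cDC2s (0.36 to 0.40) and 0.24 in cDC1s (0.21 to 0.28). At the low end, the 10th percentile of single CD301b-lo cells was at 63.8 CPM in the naive and 700.3 CPM in the papain library.

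*Marcksl1* had the same order along CD301b. It was at 788 CPM in CD301b-lo (769.7 to 806), 1136 in CD301b-int (1116 to 1157) and 1414 in CD301b-hi cDC2s (1392 to 1436) of the naive library, and at 1173, 1557 and 1826 CPM in those of the papain library. Naive LCs and cDC1s were at 794 and 899 CPM and papain LCs and cDC1s at 1057 and 1235 CPM. The log2 ratio of papain to naive lay between 0.37 in CD301b-hi and 0.57 in CD301b-lo cDC2s. *Dock8* differed little between the libraries in every class. It was between 149 CPM in LCs and 211 CPM in CD301b-hi cDC2s without immunization, and between 153 and 217 CPM in the same classes with papain, with ratios between 0.04 and 0.11. Taken relative to the median ratio of all genes, the *Dock8* ratio was -0.02 in LCs and -0.05 in CD301b-hi cDC2s, so it has no stable direction. *Dock8* mRNA was detected in between 71.8 and 91.7% of the cells of a naive class and between 81.2 and 92.8% of those of a papain class.

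**Figure D2:**
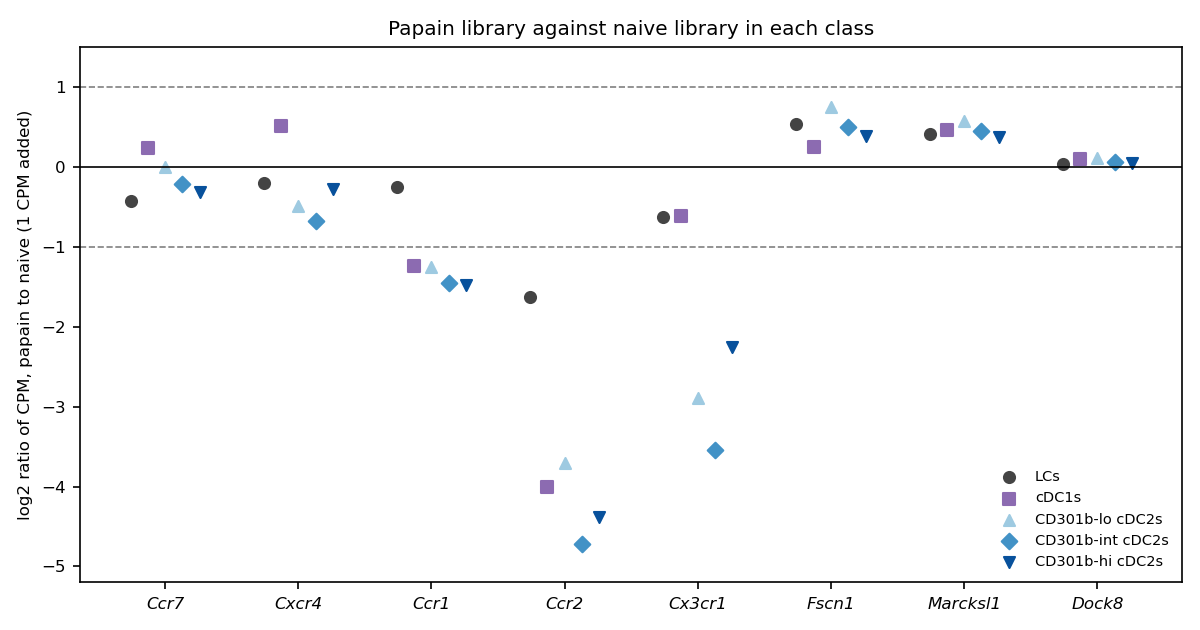
Log2 ratio of the papain to the naive library (vertical axis, CPM with 1 added) for the 8 genes, with 1 symbol for each antibody class. The solid line marks equal levels and the dashed lines 2-fold. *Ccr2* in cDC1s and cDC2s lies between -3.70 and -4.72, *Fscn1* and *Marcksl1* lie above 0 in every class, and *Dock8* lies near 0.

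Among all genes that reached 10 CPM in 1 library or both, a 2-fold difference between papain and naive was seen in 470 of 7582 genes in LCs (6.2%), 507 of 7238 in cDC1s (7%), 630 of 7575 in CD301b-lo (8.32%), 482 of 7359 in CD301b-int (6.55%) and 403 of 7226 in CD301b-hi cDC2s (5.58%). Of the genes described here, 0 of 5 passed in LCs, 1 of 6 in cDC1s, 2 of 7 in CD301b-lo, 2 of 7 in CD301b-int and 1 of 6 in CD301b-hi cDC2s. In each case these were *Ccr2* and, in CD301b-lo and CD301b-int cDC2s, *Cx3cr1*, all lower in the papain library, as were 344 of the genes counted in cDC1s, 442 in CD301b-lo, 321 in CD301b-int and 262 in CD301b-hi cDC2s. *Ccr1* was below 10 CPM in every class and was never among the genes counted. The median log2 ratio of the members counted was 0.04 in LCs, 0.24 in cDC1s, 0.00 in CD301b-lo, -0.21 in CD301b-int and -0.11 in CD301b-hi cDC2s, beside medians over all genes of 0.06, 0.02, 0.01, 0.05 and 0.09.

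Between DC subsets of the same library, LCs and cDC2s differed by at least 2-fold in 9.7% of all genes in naive cells (746 of 7687) and 4.38% in papain cells (322 of 7348). Of the genes described here, 2 of 7 passed in naive and 0 of 5 in papain cells. They were *Ccr2* (5.27 against 37.6 CPM, log2 ratio -2.62) and *Cx3cr1* (1.13 against 10.4 CPM, -2.42). Without the naive mRNA cluster 5 described below, neither was lower in LCs, with ratios of 0.46 and 0.24. *Fscn1* was higher in LCs in both libraries (0.39 and 0.37), whereas *Marcksl1* (-0.52 and -0.62) and *Dock8* (-0.38 and -0.44) were lower. LCs thus had more fascin mRNA and less mRNA of the other actin regulators than cDC2s under both conditions. Without cluster 5 the naive *Fscn1* ratio was 0.19.

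cDC1s and cDC2s differed by at least 2-fold in 11.7% of all genes in naive cells (879 of 7523) and 9.66% in papain cells (700 of 7245), and of the genes described here 2 of 7 passed in naive and 0 of 5 in papain cells. These were *Cxcr4* (71.6 against 155 CPM, log2 ratio -1.10) and *Cx3cr1* (0.527 against 10.4 CPM, -2.90), and without naive cluster 5 they were at -0.99 and -0.24, short of 2-fold. *Ccr7* was lower in cDC1s in both libraries, with ratios of -0.88 and -0.46, and the naive ratio passed 2-fold without cluster 5 (-1.03). The papain ratios of this comparison had a median of -0.12 over all genes, and relative to it *Ccr7* was at -0.34 and *Cxcr4* at -0.06. *Fscn1* was 0.41 higher in naive cDC1s and 0.10 higher in papain cDC1s on the log2 scale, and the naive value was 0.22 without cluster 5.

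CD301b-hi and CD301b-lo cDC2s differed by at least 2-fold in 4% of all genes in naive cells (299 of 7475) and 2.02% in papain cells (145 of 7171). Of the genes described here 1 of 7 passed in naive cells, *Cx3cr1* (4.73 against 15.8 CPM, log2 ratio -1.55), and 0 of 5 in papain cells. *Marcksl1* was higher in CD301b-hi cells with ratios of 0.84 in naive and 0.64 in papain cells, *Fscn1* with 0.75 and 0.39, and *Dock8* with 0.32 and 0.26. *Ccr7* was 0.31 higher in naive CD301b-hi cells and did not differ beyond counting error in papain cells (-0.00, interval -0.02 to 0.01). Without cluster 5 the naive ratios were -0.67 for *Cx3cr1*, 0.69 for *Marcksl1*, 0.53 for *Fscn1* and 0.16 for both *Dock8* and *Ccr7*. *Fscn1*, *Marcksl1* and *Dock8* thus followed CD301b in both libraries, without any of them reaching 2-fold. The longer list of 40 actin and movement genes described below had median ratios of 0.11 and 0.06, beside -0.06 and 0.01 over all genes. In naive cells 0 of 39 of these genes were 2-fold higher and 1 was lower (*Was*, 11.6 against 25.4 CPM), beside 57 higher and 242 lower over all genes. In papain cells 0 of 38 passed in either direction.

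The authors also divided the cDC2s by their mRNA, into 7 naive clusters and 9 papain clusters. The same genes were used to make these clusters, so that differences between them are a description. Of the naive clusters, cluster 5 (246 cells, 12.2% of naive cDC2s) held 54 of the 54 *Ccr1* UMIs of naive cDC2s, 1071 of the 1164 *Ccr2* UMIs (92.0%, Clopper-Pearson interval 90.3 to 93.5%) and 302 of the 323 *Cx3cr1* UMIs (93.5%, 90.2 to 95.9%). *Ccr2* was at 219 CPM in cluster 5 (206 to 233) and 3.56 CPM in the other naive cDC2s (2.88 to 4.37), a 61.5-fold difference. *Cx3cr1* was at 61.8 (55.0 to 69.2) and 0.805 CPM (0.498 to 1.23), and *Ccr1* at 11.0 CPM (8.30 to 14.4) and 0 UMIs. Most of the inflammatory receptor mRNA of naive cDC2s was therefore in a minority of cells.

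The homing receptor and the actin genes had the opposite pattern in these cells. *Ccr7* was at 1389 CPM in cluster 5 and 4087 CPM in the other naive cDC2s, which is 2.94-fold, *Fscn1* at 409.9 and 2079.9 CPM (5.07-fold), *Marcksl1* at 511 and 1252 CPM (2.45-fold) and *Dock8* at 101 and 212 CPM (2.10-fold). *Cxcr4* was the exception and was 1.52-fold higher in cluster 5, at 217 against 143 CPM. Cluster 5 had the lowest level of *Ccr7*, *Fscn1*, *Marcksl1* and *Dock8* and the highest of *Cxcr4*, *Ccr1*, *Ccr2* and *Cx3cr1* of the 7 naive clusters. Its median depth of 18848 UMIs was above the 14196 UMIs of all naive cDC2s, and its cells were not few in detected genes (median 3652).

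**Figure D3:**
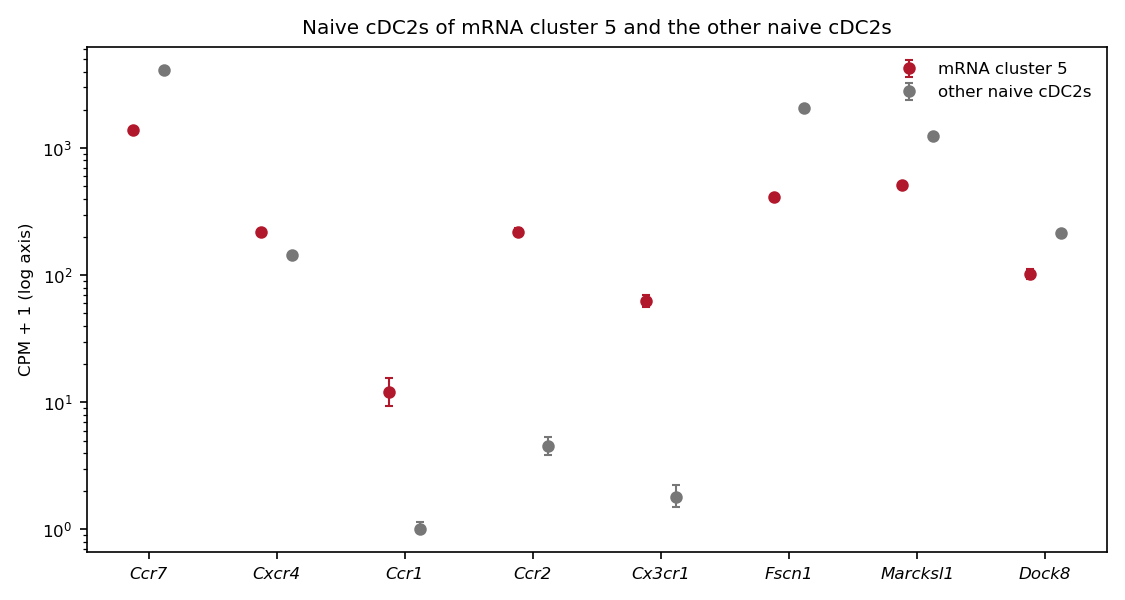
Level of the 8 genes in naive cDC2s of mRNA cluster 5 (red, 246 cells) and in the other 1778 naive cDC2s (grey), as CPM plus 1 on a log axis, with exact Poisson 95% intervals. *Ccr1*, *Ccr2* and *Cx3cr1* are higher in cluster 5, at 11.0, 219 and 61.8 CPM, and *Ccr7*, *Fscn1*, *Marcksl1* and *Dock8* are higher in the other cDC2s.

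The 3 inflammatory receptors were found together in single cells. Of the 246 cells of cluster 5, 157 (63.8%) had a UMI of at least 1 of them, against 40 of the other 1778 naive cDC2s (2.25%). *Ccr2* and *Cx3cr1* were both seen in 73 cells of cluster 5 and in 3 of the others, and 18 of the 19 cells with *Ccr1* also had *Ccr2*. Within cluster 5, the 128 cells with a *Ccr2* UMI had 726 CPM of *Ccr7* (696 to 758) and the 118 cells without one 2370 CPM (2302 to 2439), at median depths of 21069 and 15404 UMIs. Their *Fscn1* was at 308 and 561 CPM and their *Cxcr4* at 252 and 165 CPM. Summed *Marcksl1* differed little (523 and 495 CPM), but its median cell was lower with *Ccr2* (306 and 423 CPM). *Dock8* was at 108 (96.0 to 120.2) and 90.9 CPM (78.1 to 105.2), with overlapping intervals. The receptors were not exclusive of *Ccr7*, since 120 of the 157 cells also had a *Ccr7* UMI.

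Cluster 5 was 58.1% CD301b-lo, 26.0% CD301b-int and 15.9% CD301b-hi cells. Within it, the order of the CD301b classes was not that of all naive cDC2s. *Ccr2* was at 100.4 CPM in its CD301b-lo (88.5 to 114), 289 in its CD301b-int (262 to 319) and 441 CPM in its CD301b-hi cells (399 to 486), and *Ccr7* at 1662 (1613 to 1713), 1295 (1237 to 1355) and 769 CPM (712 to 828). *Fscn1* was at 426, 510.2 and 204 CPM in the same order, and *Cx3cr1* at 54.3, 78.9 and 55.4 CPM. The CD301b-hi cells of cluster 5 were 39 cells, so these sums rest on few cells.

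Surface antibodies, which were not used to make the mRNA clusters, also differed between them. Their values are natural logs. Cluster 5 had the highest median CD11c of the 7 naive clusters, at 3.65 (quartiles 3.18 to 4.08) against 1.36 to 2.87 in the others, and the highest median CD172a (1.88). Its median MHC class II of 5.02 (4.59 to 5.24) was the second lowest, above only cluster 7 (4.76), and the other 5 clusters lay between 5.29 and 5.79. Marker genes of monocytes and macrophages (the same 4 genes, all with a UMI) summed to 253 CPM in cluster 5. They summed to between 4.98 and 37.5 CPM in the other naive clusters. In the antibody classes of the naive library, which include cells of cluster 5, the sum was at most 62.9 CPM. Markers of DCs (*Flt3*, *Zbtb46*, *Cd74*, *H2-Aa* and *H2-Ab1*) summed to 42508 CPM in the same cells and to between 5506 and 14579 CPM in the other naive clusters. Most of this sum can come from *Cd74*, *H2-Aa* and *H2-Ab1*, which were at 10635, 4531 and 3498 of 18909 CPM in naive CD301b-lo cDC2s. Markers of cDC2s (*Sirpa*, *Irf4*, *Itgam*, *Mgl2* and *Cd209a*) summed to 866 CPM in cluster 5 and to between 82.7 and 373 CPM in the others. T cell markers summed to 5.73 CPM in cluster 5. The part of any other cell type in the levels of cluster 5 was not tested.

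Outside cluster 5, *Ccr2* in naive cDC2s was highest in cluster 7 (50 cells, 55.1 CPM, 40.9 to 72.6) and cluster 6 (55 cells, 30.3 CPM, 14.5 to 55.7). In cluster 7, 28 of 50 cells held a *Cd3e* or *Trac* UMI and T cell markers summed to 659 CPM, and in cluster 6 the *Ccr2* UMIs were 10. Cluster 6 had the highest *Ccr7* (5029 CPM), *Fscn1* (3396 CPM) and *Marcksl1* (1957 CPM) of the naive clusters, at a median depth of 5929 UMIs. Cluster 3 had the highest *Dock8*, at 267 CPM.

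**Figure D4:**
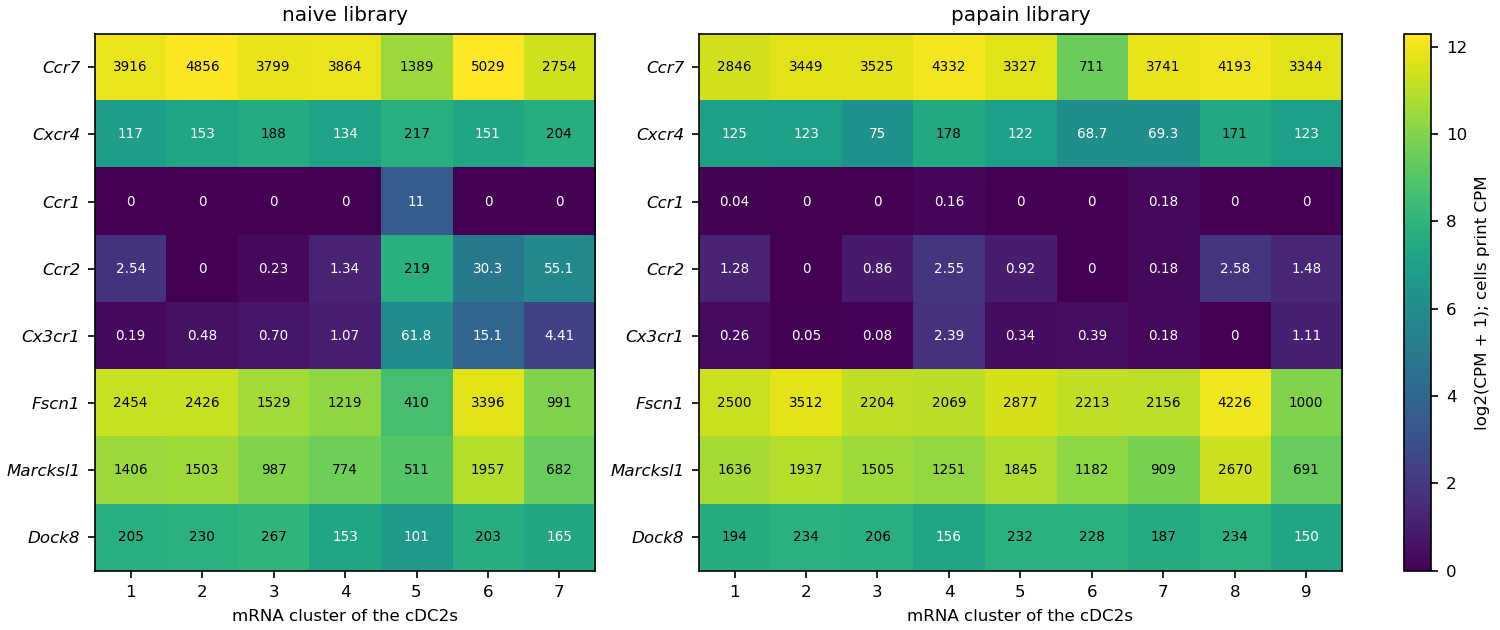
Levels of the 8 genes (rows) in the mRNA clusters (columns) of the cDC2s of each library, with color showing log2(CPM + 1) and the printed values CPM. In the naive library *Ccr2* reaches 219 CPM in cluster 5, and in the papain library no cluster exceeds 2.58 CPM. *Ccr7* has its lowest values in naive cluster 5 (1389 CPM) and papain cluster 6 (711 CPM).

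The clusters of the papain library were made separately and carry numbers of their own. None had inflammatory receptor levels like those of naive cluster 5: *Ccr2* was at most 2.58 CPM (cluster 8), *Cx3cr1* at most 2.39 CPM (cluster 4) and *Ccr1* at most 0.183 CPM (cluster 7). Papain cluster 6 (430 cells, 6.95% of papain cDC2s) nevertheless had little *Ccr7*, at 711 CPM (688 to 734) against 3357 CPM in the other papain cDC2s (3345 to 3368). It had 0 UMIs of *Ccr1* and *Ccr2*, which allows up to 0.587 CPM for each (3 UMIs). Its *Fscn1* (2213 against 2690.5 CPM), *Marcksl1* (1182 against 1649 CPM) and *Cxcr4* (68.7 against 118 CPM) were also lower, but *Fscn1* was within 1.22-fold, and *Dock8* (228 against 208 CPM) was 1.10-fold higher. Low *Ccr7* thus went with inflammatory receptors and a 5.07-fold lower *Fscn1* in naive cluster 5, and with little of either in papain cluster 6.

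The other papain clusters differed in *Fscn1*, *Marcksl1* and *Cxcr4*. *Fscn1* was lowest in cluster 9 (963 to 1038 CPM by its interval) and highest in cluster 8 at 4226 CPM, and *Marcksl1* ranged from 691 to 2670.1 CPM in the same clusters, whereas *Ccr7* lay between 2846 and 4332 CPM and *Cxcr4* between 69.3 and 178 CPM in all clusters but cluster 6. *Dock8* ranged from 150.3 to 234 CPM over the 9 clusters. Cluster 4, of whose cells 78.5% were CD301b-lo, had the highest *Ccr7* (4332 CPM) and *Cxcr4* (178 CPM) and the second lowest *Fscn1* (2069 CPM) and *Dock8* (156 CPM). *Ccr7* and *Fscn1* therefore did not share their order across these clusters.

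**Figure D5:**
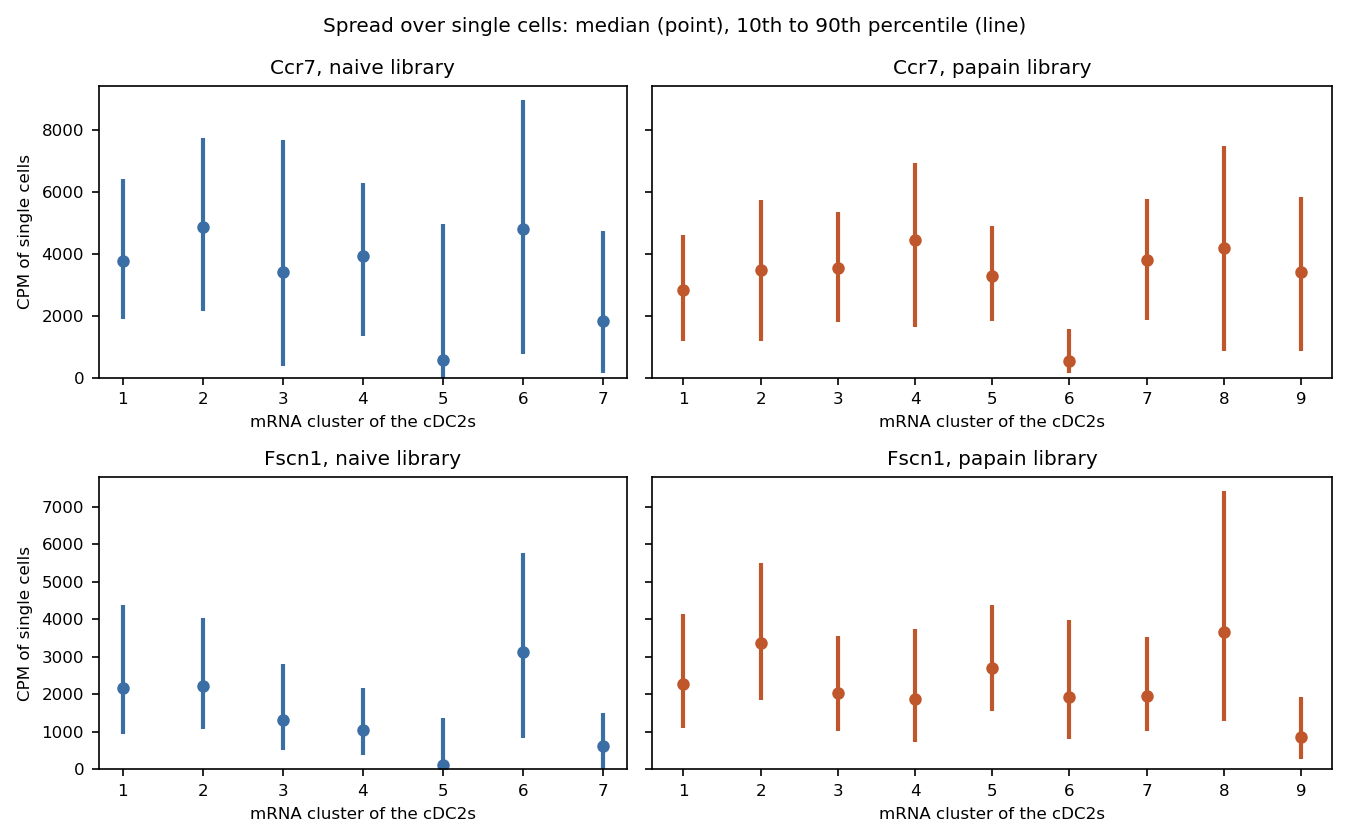
Spread of *Ccr7* (top) and *Fscn1* (bottom) over single cells of each cDC2 mRNA cluster in the naive (left) and papain (right) library, in CPM of single cells. Points are medians and lines run from the 10th to the 90th percentile. The median *Ccr7* is 571 CPM in naive cluster 5, where the 90th percentile reaches 4946 CPM, and 524 CPM in papain cluster 6, where it reaches 1584 CPM.

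The spread within the *Ccr7*-low clusters was not alike. In naive cluster 5 the cells ran from 0 CPM at the 10th percentile to 4946 CPM at the 90th, so that the 90th percentile lay above the median cell of every other naive cluster, and 84.1% of its cells had a UMI. In papain cluster 6 they ran from 134 to 1584 CPM, and 98.6% of the cells had a UMI. For *Fscn1*, the median cell of naive cluster 5 was at 114 CPM and that of papain cluster 6 at 1933 CPM.

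The differences between papain and naive cDC2s were recomputed without naive cluster 5, a choice made after the data were seen. The *Ccr2* log2 ratio was then -1.51 in CD301b-lo, -1.65 in CD301b-int and -0.27 in CD301b-hi cDC2s, and the *Cx3cr1* ratio 0.05, -0.87 and -0.20. The *Fscn1* ratios were 0.42, 0.34 and 0.28 and the *Marcksl1* ratios 0.35, 0.35 and 0.30, so both genes were higher with papain without these cells as well. In CD301b-lo cDC2s, *Ccr7* went from 0.00 to -0.24 and *Dock8* from 0.11 to -0.11.

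In naive cDC1s the cells with *Ccr2* also differed from those without. The 39 cells with a *Ccr2* UMI had 1053 CPM of *Fscn1* (984 to 1127) and the 539 cells without one 2544 CPM (2511 to 2578). Their *Ccr7* was at 1858 and 2007 CPM, with median cells further apart at 810 and 1435 CPM. Their *Dock8* was at 124 and 173 CPM and their *Cxcr4* at 118 and 67.3 CPM. As in cluster 5, *Fscn1* was lower and *Cxcr4* higher in cells with *Ccr2*. In naive cDC2s outside cluster 5, *Fscn1* was also lower in the 31 cells with *Ccr2* (1775 against 2088 CPM). Summed *Cxcr4* was lower there as well (104 against 144 CPM), but the median cells hardly differed (78.8 against 79.4 CPM). T cell markers were higher in naive cDC1s than in the other classes, and their part in these values was not tested.

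Other genes of cell movement were taken from 2 lists. Of 29 chemoattractant receptors, 23 were listed in the data. In CD301b-lo cDC2s 7 of the 10 with at least 10 CPM were at least 2-fold lower in the papain library and none higher, with a median log2 ratio of -1.42 against 0.01 over all genes, of which 442 of 7575 were lower. Besides *Ccr2* and *Cx3cr1* these included *Cxcr6* (0.166 against 11.6 CPM, -3.43) and the chemerin-binding receptor *Ccrl2* (72.2 against 240.4 CPM, -1.72). In the same class the marker sums of several other cell types were lower too. Naive and papain sums were 43.7 and 12.2 CPM for T cells, 62.5 and 28.7 CPM for B cells, 11.3 and 0.554 CPM for NK cells and 62.9 and 24.3 CPM for monocytes and macrophages. The sum of plasmacytoid DC markers was instead higher with papain (128 and 222 CPM), but nearly all of it was *Bst2* (120 and 218 CPM). Of its other genes, *Siglech* was lower with papain (3.36 and 0.222 CPM) and *Ly6d* differed little (4.23 and 4.38 CPM). *Ly6c2* of the monocyte and macrophage list was higher (5.20 and 8.03 CPM). In cDC1s 4 of 9 receptors were lower (*Cxcr6*, *Ccr2*, *Ccr6* and *Ccrl2*), beside 344 of 7238 genes in all. There T cell markers summed to 145.8 CPM in naive and 20.5 CPM in papain cells and NK cell markers to 8.11 and 0 CPM, and T cells also express *Cxcr6* and *Ccr6*. In CD301b-int cDC2s 3 of 6 receptors (321 of 7359 genes) and in CD301b-hi cDC2s 1 of 5 (262 of 7226 genes) were lower. The part of other cell types in these counts was not tested. In LCs *Ccrl2* was lower (128 against 408 CPM, -1.66) and *Gpr183*, the oxysterol receptor that positions DCs within the node, was higher in the papain library (538 against 117 CPM, 2.19). Compared with cDC2s, 3 of 10 receptors were at least 2-fold lower in naive cDC1s (*Gpr183*, *Cx3cr1* and *Cxcr4*) and 3 higher (*Cxcr6*, *Xcr1* and *S1pr1*). Over all genes, 520 of 7523 were lower and 359 higher. In papain cDC1s 1 of 5 was lower (*Gpr183*, 42.0 against 510.4 CPM) and 1 higher (*S1pr1*, 21.5 against 4.68 CPM), beside 438 lower and 262 higher of 7245 genes in all.

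All of the 40 genes of actin and leukocyte movement were listed. In LCs 8 of the 38 with at least 10 CPM were at least 2-fold higher in the papain library and none lower, with a median log2 ratio of 0.48 against 0.06 over all genes, of which 298 of 7582 were higher and 172 lower. They included *Coro1a* (239 against 85.2 CPM, 1.48), *Myl12a* (385 against 153 CPM, 1.33), *Capg* (71.0 against 27.7 CPM, 1.33), *Arpc2* (622 against 268 CPM, 1.21) and profilin *Pfn1* (1861 against 811 CPM, 1.20), which coat, contract, cap, branch or extend actin filaments. The median was 0.28 in cDC1s, 0.25 in CD301b-lo, 0.35 in CD301b-int and 0.26 in CD301b-hi cDC2s. There 0 of 38, 1 of 39, 1 of 39 and 1 of 38 of these genes were at least 2-fold higher. Over all genes, 163 of 7238, 188 of 7575, 161 of 7359 and 141 of 7226 were higher in the same order. *Myo1f*, a myosin of leukocytes, was lower in the papain library in CD301b-lo (1.44 against 16.5 CPM, -2.84) and CD301b-int cDC2s (0.510 against 11.3 CPM, -3.03). In naive LCs 8 of 39 of these genes were at least 2-fold lower than in cDC2s (465 of 7687 over all genes), with a median of -0.46. In papain LCs 1 of 38 was lower (*Rac2*, 13.5 against 32.5 CPM, beside 141 of 7348 over all genes), with a median of -0.19.

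The genes whose levels were most like those of a member were looked up among 8443 genes over the 10 groups of class and library, which come from only 2 libraries. For *Ccr7* these were *Skil* (Pearson r = 0.963), the DC maturation marker *Cd83* (0.957) and *Phf21a* (0.947). For *Fscn1* they were *Rab12* (0.970), *1810058I24Rik* (0.964) and *Sephs1* (0.939), for *Marcksl1* *Cstb* (0.962), *1700047I17Rik2* (0.962) and *Plcl1* (0.960), and for *Dock8* *Tbc1d8* (0.95), *Ptdss1* (0.948) and *Lasp1* (0.946). For *Cxcr4* they were *Zfp36l1* (0.946), *Brd3* (0.922) and *Gm26522* (0.922), for *Ccr2* *Rps28* (0.987), *Gm10263* (0.984) and *Gm8805* (0.975), and for *Cx3cr1* the chemokine gene *Ccl2* (0.975), *Tgm2* (0.972) and *Sirpb1a* (0.969). The correlations over so few groups describe shared differences between classes and libraries. *Ccr1* was below 10 CPM in every group and was left out.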

How the data were processed

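CITEseq data of 1 naive and 1 papain library were analysed, as sorted cells grouped by the authors' labels for antibody class and cDC2 mRNA cluster. Per the labels, the kit was a 3' single-cell kit (v3), and the submitters' processing notes name Cell Ranger 3.0.1, Partek and mm10. In the tables that the authors deposited, mRNA is given as log2 of CPM plus 1 for each cell. Undoing this gave whole UMIs (100% of values up to 50 UMIs were whole within 0.02). The antibody values the authors deposited are natural log (ln) values for 12 antibodies and were used as medians.

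The 8 genes and the context and marker lists were chosen with earlier results of these data known. UMIs were summed by class and library, since cells are not replicates and 1 library per condition allows no test. A gene was counted as different at a log2 ratio of at least 1 in size (1 CPM added) and at least 10 CPM in the higher group, over 11 comparisons. From the lists, genes past this were named, at most 5 per direction and comparison, and for each member the 3 genes of highest correlation of log2(CPM + 1). Of the other marker lists, B cell markers summed to 4.49 to 62.5 CPM over the classes, NK cell markers to 0 to 11.3, plasmacytoid DC markers to 93.1 to 249.6, and *Pecam1* of the stroma list to 0.680 to 9.21 CPM; neutrophil markers were not listed. Shares were also given after thinning to 8392 UMIs, the 10th percentile of depth, with cells of fewer UMIs left out. No doublet caller was run, and doublets with T cells were treated by an alternative without *Cd3e* or *Trac*-positive cells. The 429 naive and 290 papain cells without antibody data have no class. The code was tested on simulated counts. Python 3.11.15, numpy 2.4.6, scipy 1.17.1, pandas 2.3.3 and matplotlib 3.10.9 were used. Gene positions are those of RefSeq.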

Additional observations from a re-analysis of the deposited data

Results flagged for a closer look

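*Ccr7* and *Cxcr4* differed in direction between classes of DCs under the same contrast. The log2 ratio of papain to naive for *Ccr7* was 0.23 in cDC1s and -0.43 in LCs, and for *Cxcr4* it was 0.51 in cDC1s and -0.67 in CD301b-int cDC2s. In each case the only library of each condition moved one way in cDC1s and the opposite way in the other class, and the difference between the classes was not tested.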

How the results depend on the processing

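Each of the 11 counts of genes at least 2-fold different was within 1.5 times its value when cells were filtered on genes and mitochondrial share, when the deepest 5% of cells or those with a *Cd3e* or *Trac* UMI were left out, with the mean of per-cell CPM, and relative to the median ratio. The counts depended on how low values were treated. For papain against naive, in LCs, cDC1s and then cDC2s that were CD301b-lo, -int and -hi, they were 207, 200, 283, 233 and 188 with 10 CPM added, 195, 148, 216, 188 and 157 with a minimum of 50 CPM, and 1049, 1636, 1343, 948 and 771 with no filter. For LCs against cDC2s in naive and papain cells they were 354 and 140, 210 and 107, and 1773 and 784 under the same 3 settings, for cDC1s against cDC2s 455 and 323, 344 and 254, and 1648 and 1606, and for CD301b-hi against CD301b-lo cDC2s 111 and 66, 75 and 56, and 933 and 321. Settings without naive mRNA cluster 5 or papain mRNA cluster 6 were chosen after seeing the data. Without naive cluster 5, 386 genes were counted for papain against naive CD301b-lo cDC2s and 185 for naive CD301b-hi against CD301b-lo cDC2s. The *Cx3cr1* ratio of papain to naive CD301b-lo cDC2s then was 0.0503, and the ratios of naive LCs to cDC2s were 0.46 for *Ccr2* and 0.24 for *Cx3cr1*, all of opposite sign to the values with these cells. Their naive levels without cluster 5 rest on few UMIs. Of the other single-gene ratios and shares under these settings, 462 lay inside the counting interval of the main value and 255 outside it. The intervals of ratios leave out the added CPM, so some main ratios already lie outside their own interval. An example is *Cx3cr1* in CD301b-int cDC2s, papain against naive (-3.55, interval -9.16 to -5.28). The 255 therefore do not count movement alone. No paired analysis was possible because there was 1 library per condition and the labels carry no replicate numbers. Depth limits *Ccr1* most, with 3 UMIs in the papain library.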

Other observations

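The expression data also hold 429 naive and 290 papain cells without antibody data, which belong to no class and entered no comparison. *Ccr7* was at 3064 CPM in the naive and 1790.5 CPM in the papain cells of this kind, and *Fscn1* at 2025 and 1188 CPM. A *Cd3e* or *Trac* UMI was found in 237 and 241 of them. *Ccr2* was at 24.1 CPM (20.7 to 27.9) in the naive and 11.1 CPM (7.52 to 15.9) in the papain cells, beside 30.2 and 0.904 CPM in all naive and papain cells with a class. *Cx3cr1* was at 3.97 and 3.71 CPM.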
